A study of Mus musculus with 22 samples.

Results

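Reelin (gene symbol Reln) and its receptors Lrp8 and Vldlr were followed through B cell lymphoma development in Eμ-Myc mice. The members are these 3 genes out of 12393 with a named probe set, and they were taken as 6 of 22690 probe sets: 1 for Reln, 1 for Lrp8 and 4 for Vldlr. Reln was chosen because its level in these arrays was at the floor in wild type cells and varied widely among lymphomas, so its levels are described here without a test. The data are 22 Affymetrix MOE430A arrays of B cells from C57Bl/6 mice, 1 array per sample: 4 of wild type mice, 5 of premalignant Eμ-Myc cells and 13 of Eμ-Myc lymphomas from as many mice. The transgene drives Myc from the immunoglobulin heavy chain enhancer, which acts in B lineage cells. Magnetic beads against B220 or IgM were used to isolate the cells from spleen or bone marrow, and the tissue of a given array is not stated. The wild type samples are labelled B220+, while the premalignant and malignant labels name Myc B lymphocytes and no selection marker. Whether the selection differed between the groups is therefore not known, and such a difference could not be told apart from stage. Premalignant and wild type mice were littermates aged 4 to 6 weeks. The label gives the lymphomas the same age, which was not relied on. Values are GCRMA intensities used as log2, and log2 4 is taken as the floor below which no order is read. The number of arrays limits the precision.

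Reelin is a large secreted glycoprotein, best known for guiding migrating neurons in the developing cortex and cerebellum. It binds the lipoprotein receptors encoded by Lrp8 (also called ApoER2) and Vldlr, and both pass the signal on through the cytoplasmic adaptor Dab1, which Src family kinases such as Fyn phosphorylate. In adults Reelin is also made outside the brain, for example by lymphatic endothelium and by stellate cells of the liver.

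The promoters of the 3 genes are shown because Myc, the transgene, binds the E-box CACGTG with its partner Max, and to give their CpG content. Each is the 250 bases before the most upstream start site in RefSeq on GRCm38.p6, written 5′ to 3′ on the strand of the gene, with CACGTG in capitals. All 3 genes were matched to RefSeq by symbol.
Reln, chr5:22344706-22344955, minus strand: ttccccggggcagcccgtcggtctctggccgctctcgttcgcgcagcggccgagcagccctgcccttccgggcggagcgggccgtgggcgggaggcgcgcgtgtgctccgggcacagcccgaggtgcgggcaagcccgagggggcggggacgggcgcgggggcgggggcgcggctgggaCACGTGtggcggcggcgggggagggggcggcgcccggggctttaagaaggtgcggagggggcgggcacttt
Lrp8, chr4:107802635-107802884, plus strand: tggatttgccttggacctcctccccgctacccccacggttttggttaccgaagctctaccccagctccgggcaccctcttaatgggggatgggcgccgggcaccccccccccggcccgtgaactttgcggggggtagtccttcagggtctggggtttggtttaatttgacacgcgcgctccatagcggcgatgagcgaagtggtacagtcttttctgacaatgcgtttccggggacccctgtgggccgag
Vldlr, chr19:27216234-27216483, plus strand: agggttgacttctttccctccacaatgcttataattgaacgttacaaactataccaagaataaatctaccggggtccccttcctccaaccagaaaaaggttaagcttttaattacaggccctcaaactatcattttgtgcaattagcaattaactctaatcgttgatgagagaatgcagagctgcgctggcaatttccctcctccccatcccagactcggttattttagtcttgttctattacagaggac
The Reln stretch holds 1 CACGTG, which starts 71 bases before the start site, and neither receptor's window holds one. The motif is palindromic, and it lies in 2349 of 32851 windows of 300 bases (250 before to 50 after a start site), or 7.15%. The variant CACGCG, searched on both strands, lies 2 times in the Reln window, 1 time in the Lrp8 window and 0 times in the Vldlr window, against 9.27% of all windows with at least one. The Reln window is also rich in CpG, with 47 CpG and 80.7% G or C, more CpG than 98.6% of all windows. The Lrp8 window has 21 CpG and the Vldlr window 8, and the median window has 7. Vldlr has a second annotated start, whose window (not printed) holds 23 CpG and none of these motifs. Lrp8 has 3 annotated starts, and the windows not printed hold 5 and 4 CpG and none of these motifs. The CpG content of both receptor genes thus depends on the start. These are matches of letters, and binding was not measured.

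Before the members, 3 properties of the arrays are given because they move with stage. Myc averaged log2 9.97 ± 0.26 in premalignant arrays against 7.04 ± 0.27 in wild type arrays (SD, n = 5 and 4), a 7.59-fold rise with a limma adjusted p of 1.4e-05. In malignant arrays it averaged 9.59 ± 0.59 (n = 13), 5.83-fold above wild type arrays (adjusted p = 5.9e-07), and the difference of -0.38 from premalignant arrays did not pass (adjusted p = 0.255). The beta-actin difference, the log2 signal at the 3′ end of the transcript minus that at the 5′ end, was 1.93 ± 0.37 in malignant arrays, against 0.70 ± 0.085 in premalignant and 0.77 ± 0.095 in wild type arrays. Its malignant range of 1.29 to 2.49 overlapped neither the premalignant (0.58 to 0.81) nor the wild type range (0.64 to 0.86). A fit that takes it as a covariate therefore cannot separate it from the malignant stage. Of 8 B cell markers measured, 7 were above log2 4 on every array, among them the receptor subunit Cd79a, while the B cell transcription factor Pax5 was above it on none. The summed intensity of this list was 3894 to 9998 in malignant, 17470 to 22023 in premalignant and 24920 to 30003 in wild type arrays. The 9 stroma markers measured summed to 469 to 3727 in malignant, 77.0 to 89.7 in premalignant and 83.4 to 97.3 in wild type arrays. Of these Col1a2, Col3a1, Dcn and Sparc were above log2 4 on all 13 malignant arrays and on none of the others, and Lum and Pdgfra were above it on none. In such bulk samples, fewer cells of a type and less RNA per cell cannot be told apart.

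Reln was at the floor in wild type cells, above it on some premalignant arrays and far above it in most lymphomas. Its log2 values were 3.17, 3.53, 3.36 and 3.55 on wild type arrays 1 to 4. They were 2.80, 5.20, 3.88, 6.78 and 4.49 on premalignant arrays 1 to 5. On malignant arrays 1 to 13 they were 6.21, 9.71, 9.93, 10.77, 7.47, 3.39, 9.49, 11.22, 10.60, 8.40, 2.42, 11.48 and 3.07. Thus 0 of 4 wild type, 3 of 5 premalignant and 10 of 13 malignant arrays exceeded log2 4. The intensities behind these values spanned 8.98 to 11.8 in wild type and 6.99 to 110 in premalignant arrays. In lymphomas they spanned 5.34 to 2860, with a median of 721.

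**Figure D1:**
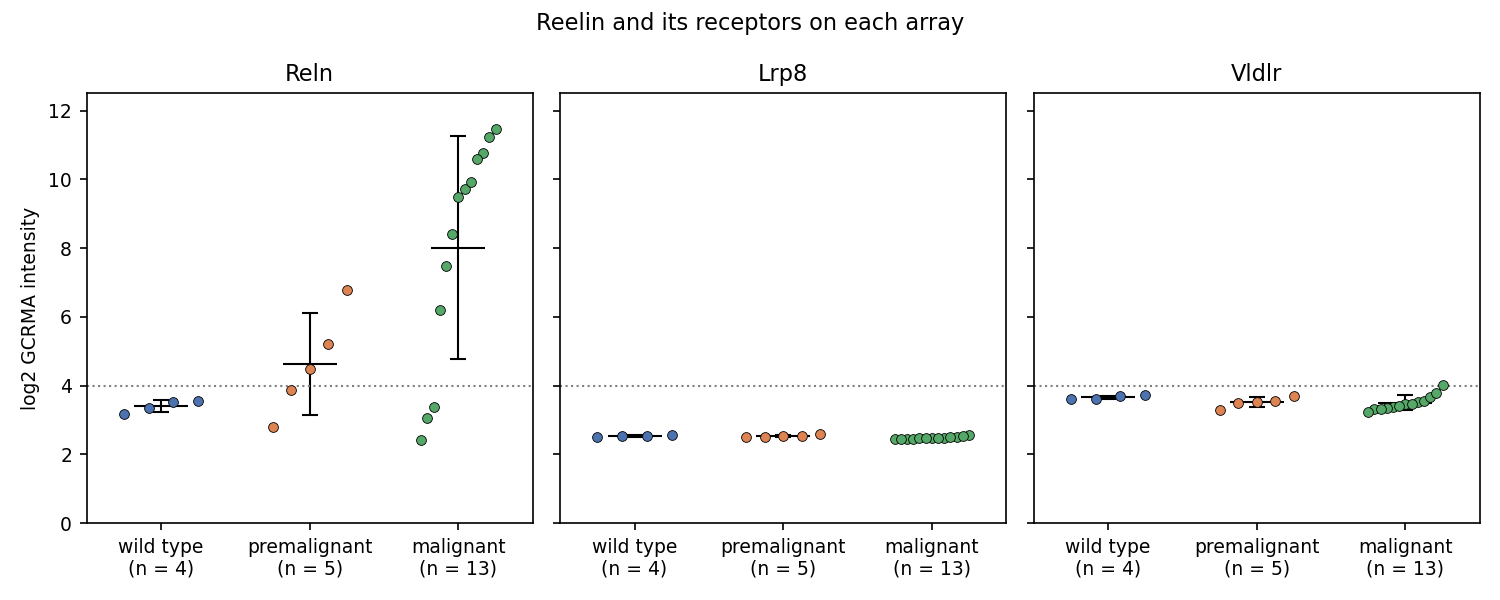
Log2 GCRMA intensity of Reln, Lrp8 and Vldlr (probe set of highest mean) on each array, by stage; points are arrays, bars the mean ± SD, and the dotted line is log2 4. Reln spans 2.42 to 11.48 among the 13 malignant arrays, while Lrp8 stays between 2.45 and 2.60 on all 22 arrays and Vldlr exceeds the line on 1 array, at 4.01.

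The mean of Reln was 8.01 ± 3.24 in malignant arrays (n = 13), against 4.63 ± 1.49 in premalignant arrays (n = 5), a difference of 3.38 log2 units or 10.4-fold, close to the SD among lymphomas. 9 of 13 lymphomas lay above every premalignant array. Premalignant arrays exceeded wild type arrays, whose mean was 3.40 ± 0.18 (n = 4), by 1.23 log2 units, which is less than the SD of the premalignant arrays. With the wild type mean set to the floor this is at least 1.55-fold. Premalignant replicate 4 carries much of it: without that array the difference is 0.69 log2 units, at least 1.07-fold. Malignant arrays exceeded wild type arrays by 4.61 log2 units, at least 16.1-fold, and 10 of 13 lay above every wild type array. The order of the means is therefore wild type, premalignant, malignant, with overlapping values at both steps.

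Lymphomas split into arrays with and without a Reln signal. Replicates 6, 11 and 13 were at 3.39, 2.42 and 3.07, below the floor like all wild type arrays. The next lymphoma stood 2.82 log2 units higher, whereas neighbours in the order of the other 10 lay at most 1.26 apart. These 10 lymphomas themselves spanned 38.6-fold in intensity, with replicate 1 lowest at 6.21 and replicate 12 highest at 11.48. By SD among the lymphomas Reln ranked 5 of 6437 genes that passed the filter on dim probe sets (log2 above 4 on at least 4 arrays), with 3.24 against a median of 0.33. Of these genes, 342 were at or below log2 4 on all wild type arrays, and 121 of the 342, or 1.88% of all 6437, exceeded it on at least 10 malignant arrays. Reln ranked 7th among the 121 by its mean level in lymphomas. These ranks restate the values for which Reln was chosen, and the cut of 10 arrays is its own count. They are a description only.

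Neither receptor gave a signal above the floor, apart from 1 lymphoma for Vldlr. Lrp8 averaged 2.48 ± 0.035 in malignant, 2.54 ± 0.037 in premalignant and 2.54 ± 0.018 in wild type arrays, and 0 of 22 arrays exceeded log2 4. The brightest Vldlr probe set averaged 3.50 ± 0.22 in malignant, 3.52 ± 0.15 in premalignant and 3.66 ± 0.055 in wild type arrays. Malignant replicate 12 was the only array above the floor for it, at 4.01. On that array the other 3 Vldlr probe sets read 3.27, 3.14 and 3.07. The other 3 Vldlr probe sets were below log2 4 on all arrays, with ranges of 3.02 to 3.89, 2.96 to 3.53 and 2.92 to 3.29. The adaptor Dab1 was likewise below it with 5 probe sets on 22 arrays. A gene without any array above log2 4 was common, at 5163 of 12393 genes or 41.7%, so that these levels are bounds on what the probe sets detect. Of the 3 members only Reln passed the filter, and Lrp8 and Vldlr were not tested in the comparisons. Without the filter limma's adjusted p was 0.066 for Lrp8 and 0.924 for Vldlr in malignant against premalignant arrays, with means below the floor on both sides.

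Among lymphomas no relation of Reln to Myc or to the beta-actin difference was detected. Over the 10 lymphomas with Reln above log2 4, Pearson's r with Myc was -0.0017 (permutation p = 0.996, adjusted over 4 relations 0.996) and Spearman's rho 0.14 (p = 0.708). With the beta-actin difference r was -0.039 (permutation p = 0.913, adjusted 0.996) and rho -0.055 (p = 0.893). Without the 2 lymphomas farthest from the median of Reln these r values were 0.26 and 0.40 (n = 8). The 3 lymphomas at the floor had Myc between 8.67 and 10.76, which are the lowest and highest Myc levels of all 13 lymphomas, and beta-actin differences of 1.68 to 2.01.

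A negative r of Reln with stroma markers did not hold up. The mean of 6 stroma markers had r = -0.63 with Reln over the 10 lymphomas (permutation p = 0.0484, adjusted 0.193) and rho = -0.54 (p = 0.114, adjusted 0.455). It did not pass the adjustment, and it rested on 2 lymphomas, since r was 0.20 without the 2 farthest from the median of Reln (n = 8). The mean of 3 blood endothelium markers had r = -0.20 (permutation p = 0.584, adjusted 0.996) and rho = -0.31 (p = 0.389), and r was -0.68 without the 2 farthest. The summed stroma signal of the 3 lymphomas at the floor of Reln lay between 469 and 2733. The premalignant array with the highest Reln, replicate 4 at 6.78, had a summed stroma signal of 85.5, within the wild type range of 83.4 to 97.3. Of the lymphatic endothelium markers, 4 of 6 were on the array with 1 symbol, and Prox1 and Flt4, which define that cell type, were above log2 4 on 0 of 22 arrays. The other 2, Lyve1 and Pdpn, which macrophages or fibroblasts also express, exceeded it on 2 and 1 of 13 malignant arrays and on none of the others. The summed level of this list was 26.9 to 45.1 in malignant, 25.6 to 32.1 in premalignant and 26.9 to 29.4 in wild type arrays. All 6 neuron markers and all 5 hepatocyte markers measured were below log2 4 on every array.

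**Figure D2:**
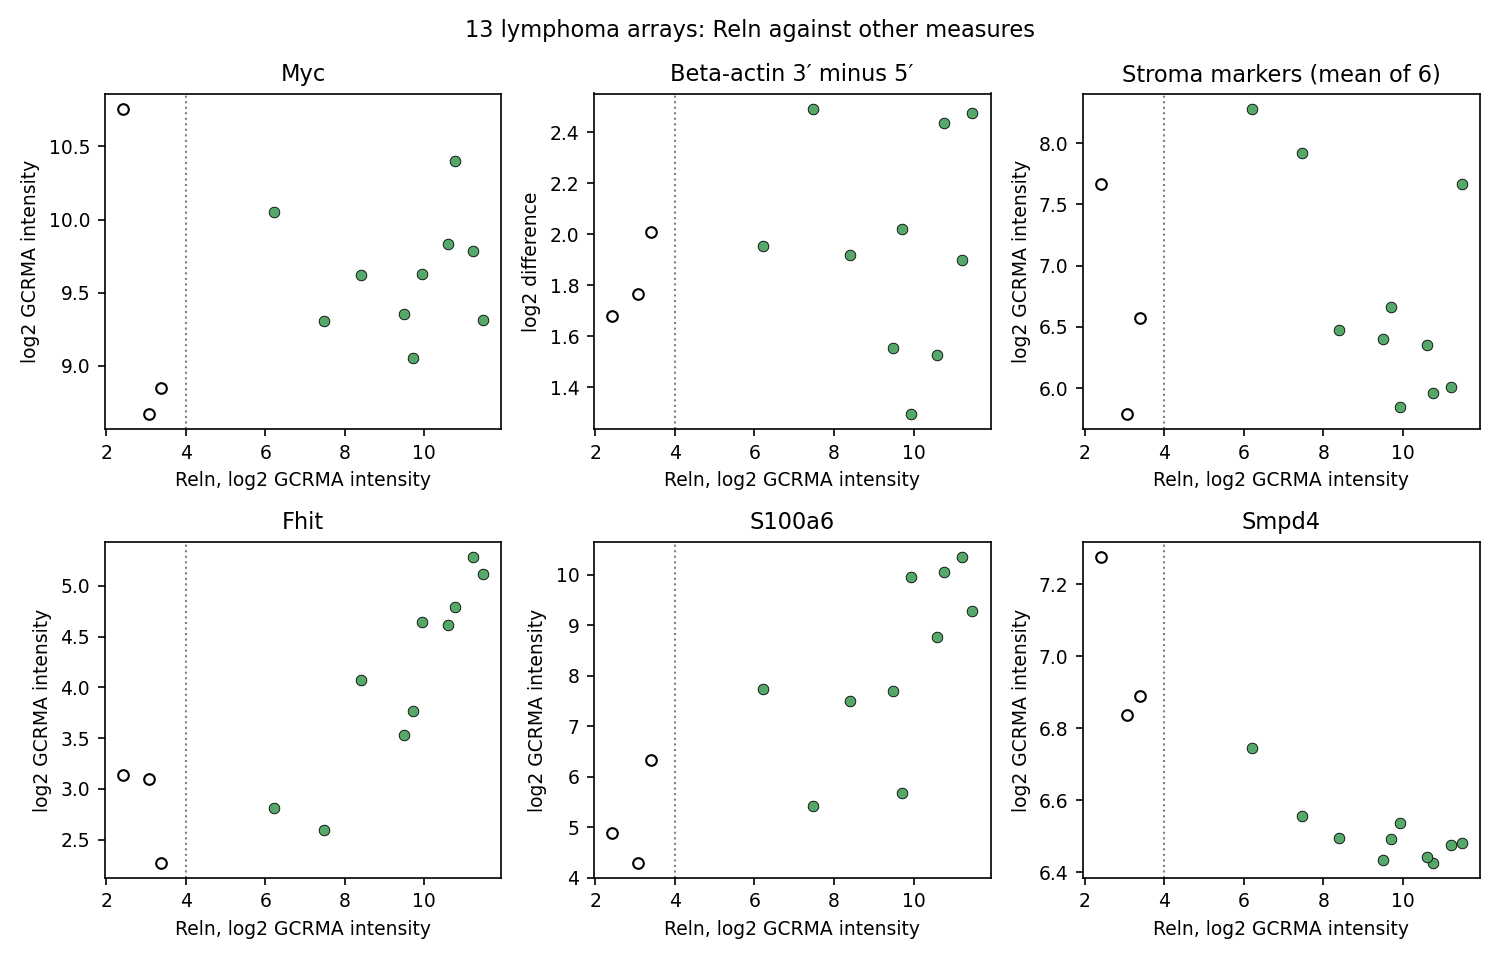
Reln (log2 GCRMA intensity, horizontal) against Myc, the beta-actin 3′ minus 5′ difference, the mean of 6 stroma markers, Fhit, S100a6 and Smpd4 on the 13 malignant arrays; filled points have Reln above log2 4 (dotted line) and open points are the 3 lymphomas at the floor. Myc spans 8.67 to 10.76 at the floor of Reln alone, while Fhit is highest, at 5.28, on an array with Reln at 11.22.

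The genes whose levels ran most like Reln over the 13 lymphomas were ranked by Pearson's r, which is a description with no p, over points that share the split into arrays with and without Reln. The highest were Srrt, which acts in RNA processing (r = 0.87, and 0.84 over the 10 arrays above the floor), the calcium-dependent kinase Camkk2 (0.85 and 0.86), Atraid (0.84 and 0.68) and the diadenosine triphosphate hydrolase Fhit (0.82 and 0.91). Cdkn2aipnl (0.81 and 0.54), Zc3h8 (0.80 and 0.68), the LIM domain protein Limd1 (0.80 and 0.72) and the calcium-binding protein S100a6 (0.79 and 0.63) followed. Of these, S100a6 had the widest range among lymphomas, at 4.30 to 10.35 log2 units, and Srrt a narrow one, at 8.42 to 9.10. Fhit ranged from 2.27 to 5.28, so that part of its range lies under the floor. The lowest were the sphingomyelinase Smpd4 (-0.91 and -0.80), the SUMO protease Senp2 (-0.88 and -0.46), the chromatin protein Vps72 (-0.87 and -0.76) and the heme synthesis enzyme Cpox (-0.87 and -0.53). Smpd4 varied little, between 6.43 and 7.27. No such ranking was made for Lrp8 and Vldlr, whose values at the floor have no order.

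The genes next to Reln on chromosome 5 varied less than Reln. The 6 that passed the filter had a positive r with it over the 13 lymphomas, which include the 3 at the floor of Reln. Without those 3 lymphomas some of the r values were negative. Of 5 protein-coding genes on each side, chosen after earlier values were seen, 7 of 10 were on the array and 6 passed the filter: Psmc2, Dnajc2, Pmpcb, Orc5, Kmt2e and Srpk2. Their ranges among lymphomas were 0.69 to 2.09 log2 units, against 9.07 for Reln. Their r with Reln over 13 lymphomas ran from 0.098 for the mitochondrial peptidase subunit Pmpcb to 0.71 for the ribosome-associated chaperone Dnajc2. Those of Dnajc2 and of the origin recognition subunit Orc5 (0.58) lay above the 95th percentile of all genes tested, 0.54, where the median was 0.039. Over the 10 lymphomas with Reln above log2 4, r ran from -0.48 for Pmpcb to 0.74 for the chromatin regulator Kmt2e. It was -0.32 for Psmc2, 0.23 for Srpk2, 0.47 for Dnajc2 and 0.58 for Orc5.

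The rest of the pathway was read from 81 genes in 6 lists by role, 68 of them measured by a probe set of 1 gene and 38 past the filter. The comparison of premalignant with wild type cells asks what the transgene changes before lymphoma. In it 2 of the 38 rose and 7 fell, at a limma adjusted p under 0.05 over all genes, where 26.8% of all 6437 genes passed (12.7% higher and 14.1% lower). In malignant against premalignant cells, the step to lymphoma, 11 rose and 6 fell, beside 42.1% of all genes (24.8% higher and 17.3% lower). The 11 include Dab2 and Nrp1, which exceeded log2 4 on malignant arrays only and so passed the filter through that group. In malignant against wild type cells 11 rose, Nrp1 again among them, and 14 fell, beside 61.5% (31.8% higher and 29.7% lower). The median log2 changes of the 38 were -0.26, -0.023 and -0.25 in this order, against -0.054, 0.089 and 0.041 over all genes. The comparisons share arrays. The labels call the replicates biological but do not say that wild type and premalignant samples came from separate mice, so these p-values measure only the spread between samples.

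The other ligands of these receptors that passed the filter were higher in lymphomas than in premalignant cells. Of 4 ligands tested, 4 were higher and 0 lower in malignant than in premalignant arrays, where 24.8% of all genes were higher and 17.3% lower. The lipoprotein lipase Lpl, which also binds Vldlr, averaged 6.84 ± 0.80 in malignant and 4.29 ± 0.71 in premalignant arrays, 5.88-fold higher (adjusted p = 3.2e-05), and no array of the groups overlapped. The chaperone clusterin, Clu, averaged 7.40 ± 1.93 and 4.49 ± 0.59 in the same groups, 7.50-fold higher (adjusted p = 0.0076). It ranged from 4.69 to 10.19 among lymphomas, so the groups overlapped. Selenop, a selenium carrier taken up through Lrp8 in mouse brain and testis, averaged 10.51 ± 0.73 in malignant and 8.93 ± 0.37 in premalignant arrays, 2.99-fold higher (adjusted p = 0.00072). Apoe, the apolipoprotein E gene, was 2.26-fold higher in malignant than in premalignant arrays (8.94 ± 0.82 and 7.76 ± 0.58, adjusted p = 0.016), and this call was lost without premalignant replicate 5 (adjusted p = 0.052).

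Against wild type arrays the ligands gave a mixed picture. Lpl was 6.80-fold higher in malignant arrays (adjusted p = 1.7e-05), Clu 7.62-fold (0.0094) and Selenop 2.34-fold (0.0069). Apoe had fallen 2.50-fold in premalignant against wild type arrays (adjusted p = 0.0072), and in malignant arrays its difference from wild type arrays of -0.15 did not pass (adjusted p = 0.765). The ligands Thbs1 and Spon1 did not pass the filter, and of the proteases that cleave Reelin or related proteins only Furin did, with no call in any comparison. The summed stroma markers and the beta-actin difference rose over the same step as the ligands. So did some markers of other cells in malignant against premalignant arrays. The macrophage genes Lyz2 (6.87-fold, adjusted p = 0.00016) and Cd68 (3.67-fold, 0.0012) were higher, while Csf1r (2.89-fold, 0.0079) and Adgre1 (2.18-fold, 0.0010) were lower. The endothelial genes Eng (2.51-fold, 0.024) and Egfl7 (1.82-fold, 0.0050) were higher, while Pecam1 (2.15-fold, 0.0071) was lower. The platelet gene Pf4 was higher (at least 1.64-fold, 0.00094), while the platelet markers Ppbp, Gp9, Gp1bb and Treml1 were above log2 4 on no array. Pf4 exceeded log2 4 on 10 malignant, 0 premalignant and 0 wild type arrays. It thus passed the filter through malignant arrays only, and its p-value gives no support to a rise. The 8 monocyte and macrophage markers summed to 784 to 4698 in malignant and 394 to 1524 in premalignant arrays, and the 8 salivary gland markers to 68.7 to 12642 and 65.8 to 87.4. With the beta-actin difference as a covariate, none of the 4 ligands passed in malignant against premalignant arrays (adjusted p = 0.065 to 0.488). The log2 differences were then larger for Clu (5.23) and Apoe (2.32) and smaller for Lpl (1.89) and Selenop (0.87). As this covariate does not overlap between the 2 groups, the fit cannot separate it from stage. The part of stromal or other cells in the levels of the ligands was not tested.

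**Figure D3:**
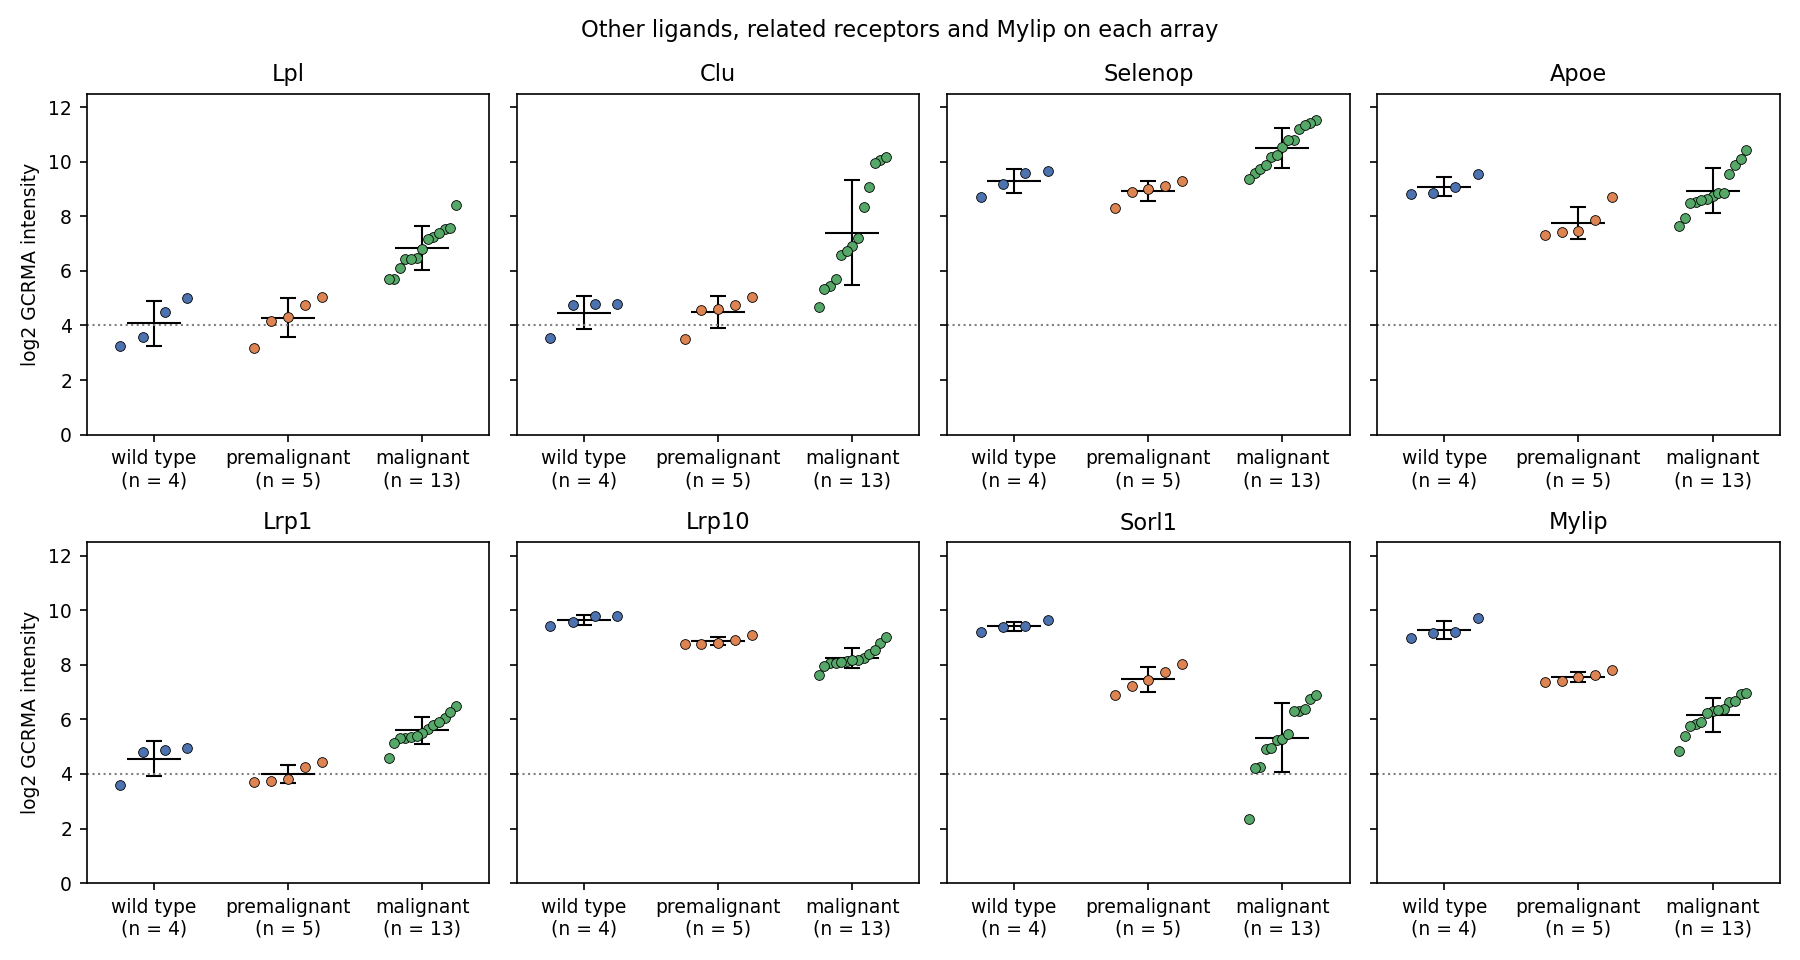
Log2 GCRMA intensity of the ligands Lpl, Clu, Selenop and Apoe, the related receptors Lrp1, Lrp10 and Sorl1, and the ubiquitin ligase Mylip on each array, by stage; points are arrays, bars the mean ± SD, and the dotted line is log2 4. Mylip falls at both steps without overlap, with means of 9.28, 7.56 and 6.17.

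Related lipoprotein receptors went both ways. Of 4 tested, 2 rose and 2 fell in lymphomas against premalignant and against wild type cells, where 42.1% and 61.5% of all genes passed. Sorl1, a sorting receptor, had log2 values of 7.21, 6.88, 7.45, 7.75 and 8.04 on premalignant arrays, against 9.41, 9.39, 9.63 and 9.20 on wild type arrays. Every premalignant array was lower, by 3.84-fold in the mean (adjusted p = 0.00023). Lymphomas ran from 2.35 to 6.89 with a median of 5.30. Their mean of 5.34 ± 1.26 was 4.38-fold below that of premalignant arrays (adjusted p = 0.0037) and 16.8-fold below that of wild type arrays (adjusted p = 9.3e-06). Lrp10, an intracellular trafficking receptor, fell 1.70-fold in premalignant against wild type arrays (adjusted p = 0.0023) and 1.53-fold in malignant against premalignant arrays (0.0073).

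Lrp1, an endocytic receptor of many cell types, stood at 4.58 to 6.47 in lymphomas with a median of 5.49, against 3.70, 4.24, 3.75, 4.46 and 3.80 in premalignant arrays. It was at least 3.02-fold higher in malignant than in premalignant arrays (adjusted p = 2.9e-05) and 2.05-fold higher than in wild type arrays (0.0046). The Wnt co-receptor Lrp6 was 1.59-fold higher in malignant than in premalignant arrays (adjusted p = 0.026) and 1.52-fold higher than in wild type arrays (0.0496). Lrp6 did not pass against premalignant arrays without premalignant replicate 3, 4 or 5 (adjusted p = 0.062 to 0.083), nor against wild type arrays without wild type replicate 1, 3 or 4 or malignant replicate 1, 2, 3, 6, 7, 8, 9, 10 or 12 (0.051 to 0.187). With the beta-actin covariate Lrp1 (adjusted p = 0.137) and Sorl1 (0.579) did not pass in malignant against premalignant arrays, the Lrp10 difference turned to 0.27 (0.612), and Sorl1 passed in malignant against wild type arrays. Lrp2 and Lrp4 did not pass the filter.

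Of 7 tested genes of receptor turnover, 1 rose and 2 fell in premalignant against wild type arrays, 0 rose and 1 fell in malignant against premalignant arrays, and 1 rose and 4 fell in malignant against wild type arrays. Over all genes 26.8%, 42.1% and 61.5% passed in these comparisons. Mylip fell most. Mylip, also called Idol, is a ubiquitin ligase that sends the receptors encoded by Vldlr and Lrp8 to degradation. Its values were 7.55, 7.37, 7.41, 7.64 and 7.82 on premalignant arrays, against 8.99, 9.73, 9.21 and 9.18 on wild type arrays. Lymphomas ran from 4.83 to 6.98 with a median of 6.30. The 3 stages did not overlap: the fall was 3.29-fold in premalignant against wild type arrays (adjusted p = 0.00012), 2.62-fold in malignant against premalignant arrays (0.00041) and 8.61-fold in malignant against wild type arrays (7.6e-08). With the beta-actin covariate the step from premalignant to malignant arrays did not pass (adjusted p = 0.066), and the difference from wild type arrays did.

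The other calls of this list were smaller. The protease Adam17, which sheds membrane proteins, fell 1.85-fold in premalignant against wild type arrays (adjusted p = 0.0020) and 1.87-fold in malignant against wild type arrays (0.0029). As a mean over its probe sets the premalignant change of Adam17 was -0.46 and did not pass (adjusted p = 0.066), and with spike centring neither passed (0.431 and 0.164). Rnf7, a RING subunit of cullin ubiquitin ligases, rose 1.58-fold in premalignant (adjusted p = 0.025) and 2.04-fold in malignant arrays (2.0e-05), both against wild type arrays. The ubiquitin ligase Cbl (2.02-fold lower, adjusted p = 0.00078) and the sorting nexin Snx17 (1.31-fold lower, 0.035) fell in malignant against wild type arrays. After median centring Snx17 did not pass (adjusted p = 0.140), and with spike centring neither Cbl (0.06) nor Snx17 (0.870) did. The first Rnf7 call was lost without premalignant replicate 4 or any of wild type replicates 2, 3 and 4 (adjusted p = 0.053 to 0.069), and that of Snx17 without wild type replicate 1 or 2 (0.059 to 0.185).

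Downstream genes were measured although both receptors were below detection. Of 19 signalling genes, 1 rose and 2 fell in premalignant against wild type arrays, 4 rose and 3 fell in malignant against premalignant arrays, and 4 rose and 8 fell in malignant against wild type arrays. The 4 that rose against premalignant arrays include Dab2, whose group means were both below the floor. The shares of all genes that passed were 26.8%, 42.1% and 61.5% in this order. Fyn, the kinase that phosphorylates Dab1 in neurons, fell 1.91-fold in premalignant (adjusted p = 0.010) and 2.88-fold in malignant arrays (0.0069), both against wild type arrays. The premalignant call of Fyn was lost in 1 fit over all 3 groups (adjusted p = 0.177) and with spike centring (0.380), and the malignant call with the beta-actin covariate (0.872). In malignant against premalignant arrays its difference of -0.59 did not pass (adjusted p = 0.256). The small GTPase Rap1b fell 1.57-fold in premalignant against wild type arrays (adjusted p = 0.0036) and 1.49-fold in malignant against premalignant arrays (0.0013), with no overlap at either step. With spike centring neither Rap1b call passed (adjusted p = 0.703 and 0.165), and with the beta-actin covariate the second did not (0.148). The survival kinase Akt1 was 1.93-fold higher in malignant than in premalignant arrays (8.51 ± 0.28 and 7.56 ± 0.28, adjusted p = 6.8e-05). It was the gene that passed in that comparison with the beta-actin covariate, 1 of the 17 called without it.

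The remaining signalling calls were small. In lymphomas the phosphoinositide kinase subunit Pik3r1 fell at least 1.43-fold against premalignant arrays (adjusted p = 0.00039) and Pik3r2 rose 1.34-fold (0.026). The actin-severing cofilin Cfl1 rose 1.31-fold (adjusted p = 0.0085) and Pafah1b1, which encodes the dynein regulator Lis1, fell 1.32-fold (0.029) in that comparison. Dab2 (adjusted p = 0.044) and, among 3 co-receptors tested, Nrp1 (0.0071) passed as higher with both group means below the floor, so no fold is given. Their highest values were 3.10 and 3.54 in premalignant and 3.03 and 3.48 in wild type arrays. Both thus passed the filter through malignant arrays only, and these p-values give no support to a rise. The dynein regulator Nde1 rose 1.36-fold in premalignant (adjusted p = 0.037) and 1.52-fold in malignant arrays (0.0037), both against wild type arrays. In malignant against wild type arrays the adaptors Crkl (1.83-fold lower, adjusted p = 8.4e-05), Crk (1.45-fold lower, 0.023) and Nck2 (1.61-fold lower, 0.0037) and the kinase Cdk5 (1.53-fold lower, 0.012) also fell. With spike centring Crkl (adjusted p = 0.081), Crk (0.568), Nck2 (0.377) and Cdk5 (0.465) did not pass in that comparison. With the beta-actin covariate the differences of Pik3r2 (-0.27) and Dab2 (-0.070) turned in malignant minus premalignant arrays. As a mean over probe sets Cfl1 did not pass (0.045, adjusted p = 0.741), and after median centring Pafah1b1 did not (0.063) in that comparison and Crk did not (0.104) in malignant against wild type arrays. Without single arrays several of these calls were lost. In malignant against premalignant arrays this held for Dab2 without any premalignant replicate or malignant replicate 2, 4, 6, 8, 10, 11 or 12 (adjusted p = 0.051 to 0.088), Pik3r2 without premalignant replicate 2, 4 or 5 (0.061 to 0.081) and Pafah1b1 without premalignant replicate 1 or 2 (0.081 to 0.125). In malignant against wild type arrays it held for Crk without wild type replicate 1 or 4 (0.069 to 0.118) and Cdk5 without wild type replicate 2 (0.072). The premalignant rise of Nde1 was lost without any of premalignant replicates 1 to 4 or of wild type replicates 1, 3 and 4 (0.053 to 0.098). Centring arrays on the hybridisation spikes left 2 calls, Mylip and Sorl1, of the 9 in premalignant against wild type arrays.

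**Figure D4:**
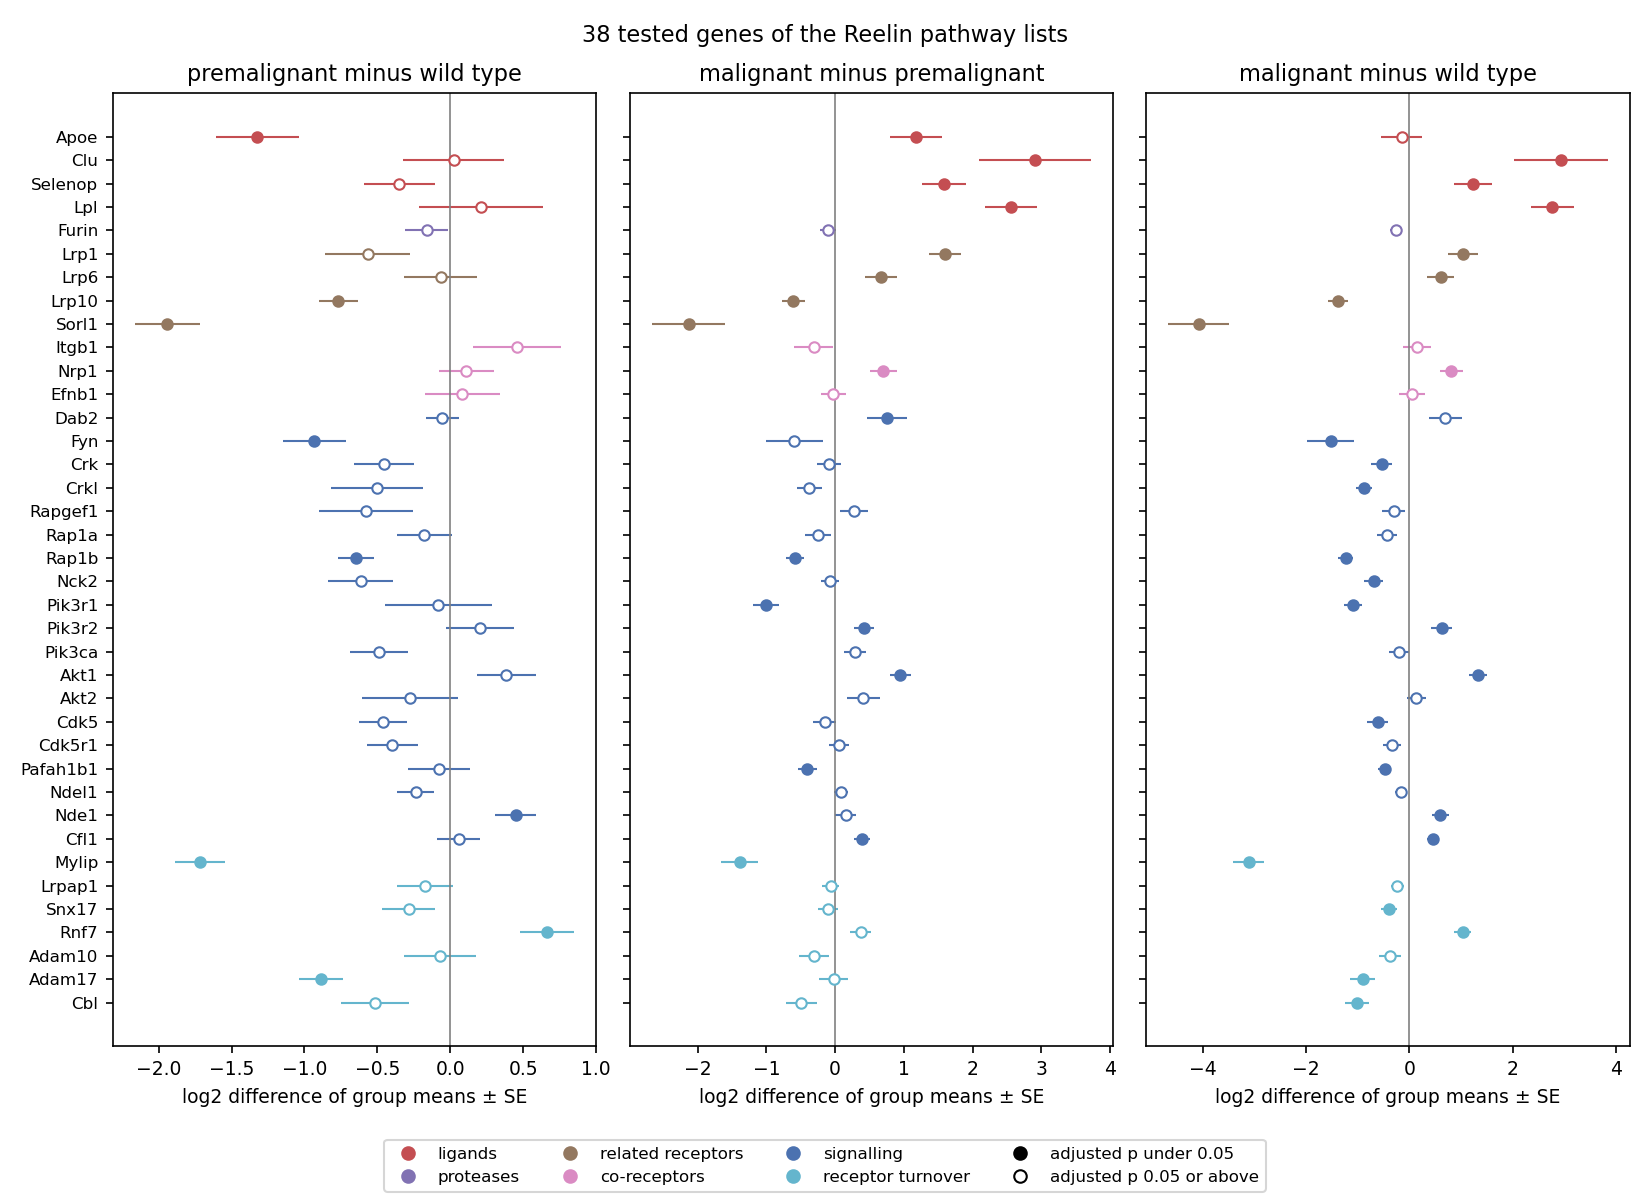
Log2 difference of group means ± SE for the 38 tested pathway genes in the 3 comparisons, grouped and coloured by list; filled points have an adjusted p under 0.05, and each panel has its own horizontal scale. The 4 ligands lie right of 0 in malignant minus premalignant arrays, and Sorl1, at -1.94, -2.13 and -4.07, and Mylip lie left of 0 in each panel.

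Over the 13 lymphomas the likeness of the pathway genes to Reln was spread around 0. Pearson's r with Reln, given as a description, ran from -0.64 for the kinase Akt2 to 0.69 for Snx17 with a median of 0.0079 over the 38 genes, against a median of 0.039 over all genes tested, of which the 5th and 95th percentiles were -0.49 and 0.54. These points share the split into arrays with and without Reln. Over the 10 lymphomas with Reln above log2 4, r was -0.31 for Akt2 and 0.51 for Snx17. There it ran from -0.80 for Cdk5r1 to 0.68 for Sorl1.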

How the data were processed

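The authors deposited 1 intensity per probe set and array, which per the submitters' processing notes is a GCRMA value. The method corrects background by probe sequence, normalises arrays to each other and summarises probe sets. Its version is not stated. The range of the intensities shows a linear scale, and log2 was taken here. Of 22690 probe sets, 20380 had 1 gene symbol in the probe table, 691 several, 1555 none and 64 were controls. Probe sets above log2 4 on at least 4 arrays were kept (10789), and each of 6437 genes was tested through its probe set of highest mean. The 2 groups of a comparison were fitted alone by lmFit and eBayes of limma 3.58.1 (R 4.3.3, two-sided tests), with Benjamini-Hochberg adjusted p over all genes and a threshold of 0.05. The fit was tested on simulated data. Group means below log2 4 were set to it for folds, which are then written as at least N-fold, and no fold is given where both lie below.

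Permutation tests used 100000 resamples drawn with NumPy 2.4.6. Promoter windows and gene order came from RefSeq, GRCm38.p6. Named are the 3 members, Myc, the called genes of each pathway list (at most 10 a list by size of change), and the 8 genes of highest and 4 of lowest r with Reln. The members, lists and tests were chosen with earlier results of these data known. Listed genes without a probe set of 1 symbol were not analysed here. The alternatives were other normalizations, filters, offsets and probe set rules, 1 fit over all groups, array weights, moderated trends, the replicate number as a block, the beta-actin difference as a covariate and leaving out each array.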

Additional observations from a re-analysis of the deposited data

Results flagged for a closer look

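Within groups of 4 to 10 arrays, 36 groups were screened for 1 array far from the others by Dixon's criterion, which chance meets in about 1 in 20 groups. It picked out 4. Lrp8 on premalignant replicate 1 was at 2.60 against 2.51 to 2.53 on the others, all below the floor. Lrp1 on wild type replicate 1 was at 3.59 against 4.82 to 4.95. Clu on wild type replicate 2 was at 3.55 against 4.77 to 4.80. Fyn on premalignant replicate 2 was at 6.43 against 5.43 to 5.72. The causes were not tested.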

How the results depend on the processing

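Reln kept the sign of its stage differences under median, quantile and spike centring and with log2(value + 16). Leaving out 1 array of the smaller groups gave 0.69 to 1.69 (premalignant minus wild type), 2.92 to 3.92 (malignant minus premalignant) and 4.53 to 4.66 (malignant minus wild type). Reln has 1 probe set, so no other could be tried, and fits with the filter, array weights or moderated trends hold neither receptor. Both receptors lie below the floor, where small shifts of scale set the sign. Premalignant minus wild type, Lrp8 was 0.037 after median and 0.15 after spike centring, and Vldlr 0.0055 after spike centring. Malignant minus premalignant, Lrp8 was 0.045 (median), 0.014 (quantile), 0.12 (spike) and -0.015 (log2(value + 16)). Malignant minus wild type, Lrp8 was 0.082, 0.024, 0.27 and -0.014 under the same settings, and Vldlr 0.17 after spike centring.

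Spike centring gave 397 calls (300 higher, 97 lower) over all genes and 2 of the pathway in premalignant against wild type arrays, and 1737 and 11 in malignant against premalignant arrays. Without the filter 4929 genes passed in malignant against premalignant arrays (1640 higher, 3289 lower), and in malignant against wild type arrays 7921 (2124 higher, 5797 lower) with 42 of the pathway. With that setting a probe set that fails the filter stood for Dab2 (-0.15, malignant minus premalignant) and Nrp1 (-0.0012, malignant minus wild type). The filter at log2 6 left 11 pathway calls in malignant against premalignant arrays. The beta-actin covariate, whose malignant values overlap those of neither other stage, cannot be separated from the malignant stage. With it 321 genes (123 higher, 198 lower) and 1 of the pathway passed in malignant against premalignant arrays, and 1879 and 7 in malignant against wild type arrays. This covariate turned Lrp10 (0.27), Dab2 (-0.070) and Pik3r2 (-0.27) in malignant minus premalignant arrays, and the cause was not tested. Same-numbered arrays did not deviate together (r = -0.113 to 0.21). With the replicate number as a block 1677 genes and 10 of the pathway passed in malignant against premalignant arrays, and 16 of the pathway in malignant against wild type arrays. In 1 fit over all 3 groups Fyn (adjusted p = 0.177) and Nde1 (0.080) did not pass in premalignant against wild type arrays. Leaving out single arrays gave 7 to 9, 13 to 18 and 22 to 27 pathway calls in the 3 comparisons, and 1292 to 1804, 2236 to 2739 and 3585 to 3978 over all genes.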
